A study of Drosophila melanogaster with 4 samples.

Results

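Weak but reproducible sites of the Polycomb group protein dSFMBT on the large autosome arms of Drosophila melanogaster are described here. The members were chosen by measured values of a list of enriched regions that combined the ChIP replicates. A region was taken when it lay on 2L, 2R, 3L or 3R, had a score under 0.5, was narrower than 6000 bp, and overlapped by at least 1 bp a region in the separate list of each replicate. 1191 regions met this rule, out of 9756 in the whole combined list and 3121 regions of the arms that were found in both replicates. The score lies on a log2 scale, so the limit of 0.5 is a ratio of 1.41, although the reference of that ratio is not stated. Chromatin immunoprecipitation and sequencing was done on wild-type larvae of the Oregon-R strain at the third instar, with 2 libraries precipitated with the anti-dSFMBT antibody Q2642 and 2 input libraries. No transgene, mutation or treatment is given for any group, and the replicates are not said to be separate collections of animals. Homogenised tissue was used and no tissue or cell type is named. A low score can therefore come from weak binding in many cells or from binding in few, and these cannot be told apart. Whether each site is bound at all, rather than background signal, was not tested.

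dSFMBT carries MBT repeats, which bind histone tails methylated on lysine at low degree. It forms the complex PhoRC with Pho, a zinc finger protein that recognises DNA sequence and is the fly relative of mammalian YY1. PhoRC sits at Polycomb response elements, where other Polycomb complexes are recruited to keep developmental genes such as the Hox genes silent in cells that should not express them. Polycomb response elements are short, while the histone methylation spread from them can cover wide domains. Positions follow FlyBase release 5; the sites carry no gene names here, since the gene annotation used was of release 6.

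Most weak regions of the combined list were not found again in both libraries. On the 4 arms, 5045 regions lay under both limits, and 1191 of them were in both replicate lists, which was 23.6% (95% exact Clopper-Pearson interval 22.4 to 24.8%, counting error only). Over all 7197 combined-list regions of the arms the share was 43.4%, and over those outside the limits it was 89.7%. Overlap with both lists was part of the rule, so these shares describe the selection. A further 642 weak regions were found in replicate 1 alone, 1135 in replicate 2 alone and 2077 in neither. With the replicate 1 list alone required, 1833 regions would have entered, and with the replicate 2 list alone 2326.

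The share found in both lists climbed steeply through the scores the rule took in. It was 6.33% of the 158 arm regions scored under 0.2, 7.32% of the 1066 scored from 0.2 to 0.3 and 18.4% of the 2430 scored from 0.3 to 0.4. From 0.4 to 0.5 it reached 48.6% of 1435, and just over the limit, from 0.5 to 0.6, it was 84.2% of 716 (95% exact interval 81.3 to 86.8%). The sites were therefore gathered at the top of the allowed range, with 667 of the 1191 at 0.4 or more and a median of 0.41, a ratio of 1.33. The lowest 5% lay under 0.28. The limit cut through a continuous range. Just inside it were regions on 2L and 3R at 0.4995, 0.4995 and 0.4994, and just outside were regions on 2L and 2R at 0.5001, 0.5006 and 0.5010.

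**Figure D1:**
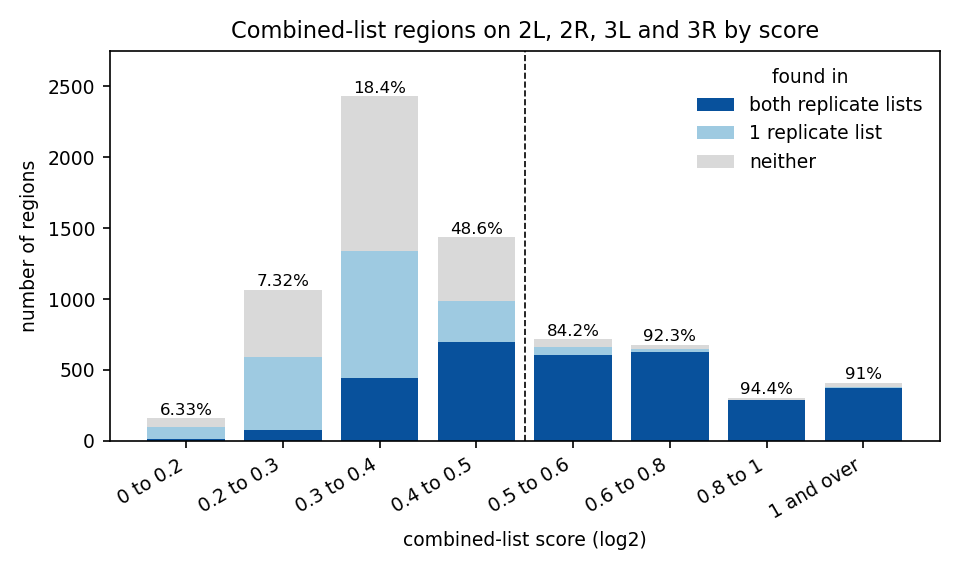
Number of combined-list regions on 2L, 2R, 3L and 3R in each range of score (log2), divided into those found in both replicate lists, in 1 list or in neither; the printed percentage is the share found in both, and the dashed line marks the score limit of 0.5. The weak sites are the dark parts left of the line under 6000 bp wide, and the share found in both rises from 48.6% to 84.2% across it.

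Weak regions narrower than 2000 bp were seldom found in both libraries, while wider ones were divided between found and not found. Of the 1829 weak regions narrower than 1500 bp, 1 was found in both. The share was 4.35% from 1700 to 1799 bp, 10.5% from 1800 to 1899 bp and 22.5% from 1900 to 1999 bp. From 2000 to 2099 bp it was 54.4% (95% exact interval 49.0 to 59.7%) and from 2100 to 2199 bp 63.8% (56.7 to 70.5%). Wider regions stayed between 39.4% and 64.7% in every step of 100 bp up to 2999 bp, and 81.6% of the 158 regions from 4000 bp to the limit were found in both. A wide region has more room to overlap another list, and how much of the step this accounts for was not tested.

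The step near 2000 bp was present in both upper ranges of weak scores. Among weak regions scored 0.4 to 0.5, 0 of 436 narrower than 1500 bp were found in both, 4 of 93 from 1500 to 1999 bp and 310 of 422 from 2000 to 2499 bp, which was 73.5% (95% exact interval 69.0 to 77.6%). Among those scored 0.3 to 0.4, the shares from 1500 to 1999 bp and from 2000 to 2499 bp were 11.3% and 47.5%. Under 0.3, where 19 regions were from 2000 to 2499 bp, the shares were 9.07% and 26.3%, with intervals that overlapped. Regions above the score limit showed the step too. Of 147 arm regions scored at 0.5 or more and narrower than 2000 bp, with scores up to 3.84, 0 were found in both, which by the exact interval allows a share of up to 2.48%. The narrowest arm region found in both at such a score was 2025 bp wide.

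The width of the sites themselves followed the same step. Their median was 2346 bp, with quartiles of 2076 and 3165.5 bp. Sites from 2000 bp to under 2200 bp made up 318 of the 1191, or 26.7%, and sites under 2000 bp 146, or 12.3%. The sites under 2000 bp had a median score of 0.30 and a highest score of 0.42, so the narrow sites scored lower than the set as a whole. All weak regions from 1500 to 1999 bp, found in both or not, had a median score of 0.30 as well. Across all sites, the median width was 1944.5 bp at scores from 0.2 to 0.3, 2148 bp from 0.3 to 0.4 and 2578 bp from 0.4 to 0.5. Over all arm regions in these ranges it rose too, from 1641 to 1770 and 2163 bp. The single site under 1500 bp, 3L:7722003-7723003, was 1001 bp wide, lay 96 bp from another region and overlapped a replicate 1 region of 3808 bp.

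**Figure D2:**
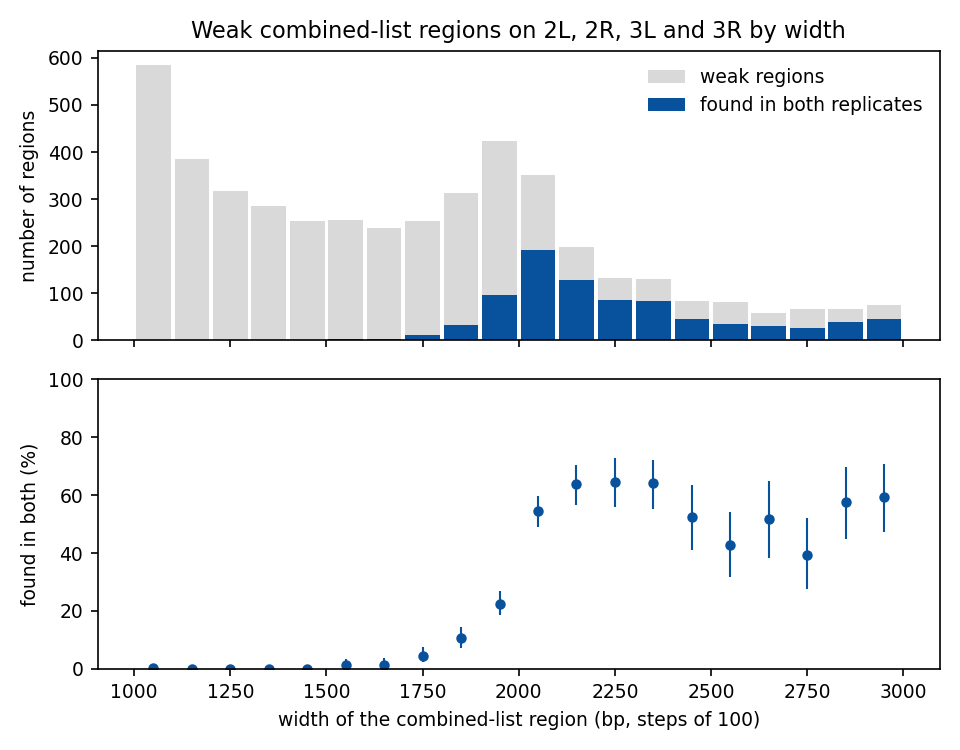
Weak combined-list regions of the 4 arms in steps of 100 bp of width: the upper panel gives the number of regions (grey) and those found in both replicates (blue), the lower panel the share found in both with its 95% exact interval. The share stays at or under 1.26% up to 1699 bp and reaches 54.4% from 2000 to 2099 bp. Regions of 3000 bp and over are not drawn.

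In the separate libraries the sites were weak as well, although less so than in the combined list. Their median score was 0.48 in replicate 1, from 0.20 to 0.84, and 0.47 in replicate 2, from 0.16 to 1.45. Where several replicate regions overlapped a site, the highest score was taken. These scores come from the same libraries as the score that chose the sites, so they are descriptions. In the list of replicate 1, 648 of the sites lay in the lowest quartile of scores and 4 in the highest, and in the list of replicate 2, 539 and 4. In all 3 lists at once, 464 sites (39.0%) were under 0.5, while 188 (15.8%) were at or over 0.5 in both replicates and under it in the combined list.

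The combined score lay below both replicate scores at 799 of the 1191 sites, or 67.1%, and above both at 4. The median gap between the mean of the replicates and the combined score was 0.066. There were 374 strong regions, those of the arms found in both replicates with a score of at least 1. At these the combined score lay below both at 25.4% and the median gap was 0.022. The 1556 other reproducible regions, found in both replicates but neither weak sites nor strong, lay in between, with 46.3% and 0.047. The sites were also wider than the replicate regions they overlapped. A site was wider than its highest-scoring replicate 1 region in 1148 cases and than its highest-scoring replicate 2 region in 1102. The median widths of these replicate regions were 1849 and 2015 bp. Most regions of the other sets were wider too, 1500 and 1359 of the 1556 other reproducible regions and 352 and 305 of the 374 strong regions. The combined score chose the sites, so its gap to the replicate scores is a description.

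The rule kept the sites in a narrow range of combined score, while the replicate scores were not limited by it. The median absolute difference between replicate scores was 0.0822, and the quartiles of the combined score were 0.36 and 0.45. These are unlike measures of different scores, so their sizes are not directly comparable. The median SD between the replicate scores of a site was 0.058 (n = 2 replicates), and 699 sites (58.7%) had scores within 0.1 of each other and 1069 (89.8%) within 0.2. Replicate 1 was the higher at 660 sites and replicate 2 at 531, or 44.6% (95% exact interval 41.7 to 47.5%), with a median difference, replicate 2 minus replicate 1, of -0.018. The same order held on each arm, where replicate 2 was the higher at 43.4% of the sites on 2L, 43.9% on 2R, 44.5% on 3L and 46.1% on 3R. At the strong regions replicate 2 was the higher at 303 of 374, with a median difference of 0.21. The other reproducible regions lay in between, with replicate 2 the higher at 1022 of 1556 and a median difference of 0.064. Whether this contrast between weak and strong regions exceeds what the choice by combined score produces was not tested. Within the narrow range of the sites the replicate scores hardly followed each other, with a Spearman rho of 0.13 across the 1191 sites, which share both libraries and were limited in combined score.

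**Figure D3:**
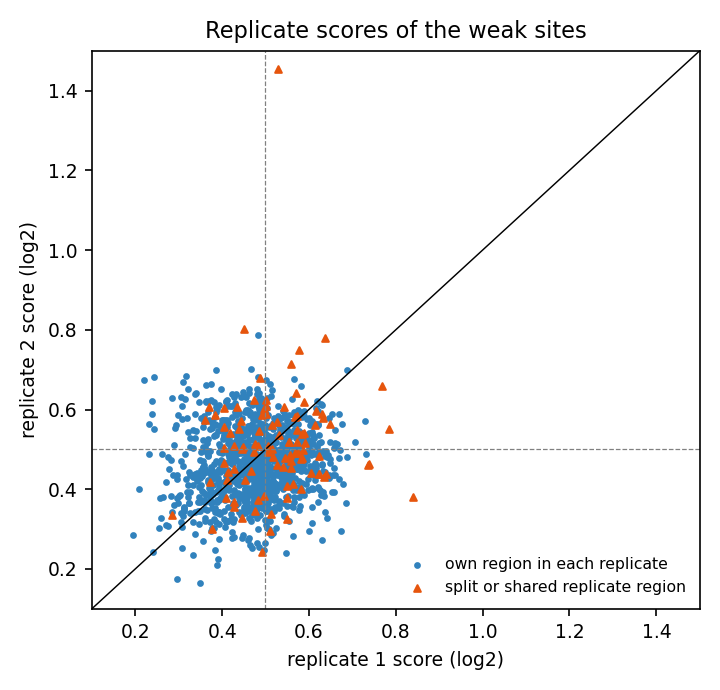
Score of each of the 1191 weak sites in replicate 1 (x axis, log2) and replicate 2 (y axis, log2); blue points have 1 region of their own in each replicate list, orange triangles overlap several replicate regions or share one with another combined-list region. The solid line marks equal scores and the dashed lines the limit of 0.5. The one point above 1 in replicate 2, at 1.45, is a shared region.

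The highest score in each replicate lay at a site whose replicate regions were split or shared, while the typical spread was the same without such sites. At 1092 sites (91.7%) each replicate had 1 region that no other combined-list region overlapped. At these sites the scores reached 0.73 in replicate 1 and 0.79 in replicate 2, against 0.84 and 1.45 over all sites. The median absolute difference between replicates was 0.0820 at these sites and 0.0822 over all. The largest difference between replicates was at 2L:379154-382443, with 0.53 in replicate 1 and 1.45 in replicate 2. That site lay 17 bp from a strong region, and the replicate 2 region at 1.45 reached into it by 108 bp, or 3.28% of its width, while another at 0.61 covered 63.2% of it. At the next, 3L:1101904-1103864, the scores were 0.84 and 0.38, and here the replicate 1 region overlapped 130 bp of the site, or 6.63%, and was shared with another combined-list region. In both, the higher value belonged to a replicate region that lay mostly outside the site.

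The other 3 of the 5 largest differences were at sites with a region of their own in each list. At 3R:19546850-19550051 replicate 1 scored 0.22 and replicate 2 0.67. At 2R:13503077-13505101 the scores were 0.24 and 0.68. At 3L:1860880-1862978 they were 0.24 and 0.62. All 3 were higher in replicate 2, and their combined scores, 0.45, 0.46 and 0.45, lay between the replicates. The 5 closest pairs of scores included 3R:1291702-1293868 at 0.493 and 0.494, 3L:3440468-3442963 at 0.476 and 0.475, and 2R:8591823-8593658 at 0.413 and 0.414. The last had a combined score of 0.18, less than either replicate by more than 0.2.

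The weakest site of each arm was narrower than 2000 bp. The lowest combined score was on 3R, at 3R:18312380-18314039, which was 1660 bp wide and scored 0.14, a ratio of 1.10, with 0.31 in replicate 1 and 0.25 in replicate 2. On 2R the weakest, 2R:13468091-13469915, scored 0.16 with 0.30 and 0.18 in the replicates. On 3L, 3L:17331478-17333360 scored 0.17 with 0.35 and 0.16. These 3 had higher scores in replicate 1, whereas the weakest of 2L, 2L:11970014-11971994, scored 0.25 with 0.28 in replicate 1 and 0.31 in replicate 2. The nearest strong region was 27.2 kb away from the 2L site, 99.7 kb from the 2R site, 216 kb from the 3L site and 564 kb from the 3R site, so none of the 4 lay within 10 kb of one.

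By mean replicate score, the highest site of 2L was again 2L:379154-382443. On 2R it was 2R:1030638-1035893, with 0.77 in replicate 1 and 0.66 in replicate 2. On 3R it was 3R:8197187-8199841, with 0.64 and 0.78, and on 3L it was 3L:8708946-8713893, with 0.45 and 0.80. Each of these 4 overlapped 2 regions of the replicate 2 list, and the higher score was used. The value of 0.78 on 3R belonged to a region covering 5.42% of the site, where the other, covering 69.9%, scored 0.33.

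The widest site of each arm had a combined score between 0.42 and 0.48, where the median of the set was 0.41. The widths were 5807 bp on 2L, 5879 bp on 2R, 5829 bp on 3L and 5762 bp on 3R, with combined scores of 0.42, 0.42, 0.44 and 0.48. At 3R:19043237-19048998, the widest of 3R, the replicates scored 0.57 and 0.58, a mean of 0.57 ± 0.0093 (SD, n = 2). At 2L:11178058-11183864 they scored 0.57 and 0.64, or 0.61 ± 0.050 (SD, n = 2). At each of these 4 sites 1 of the replicate regions was split or shared with another combined-list region. The width limit, like that of the score, met no gap, since the 3 next regions were 6016, 6027 and 6030 bp wide, and 41 regions were left out by width alone.

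The sites were placed less sharply than strong regions. Among the 1115 sites with 1 region in each replicate list, the centres of the replicate regions had a median separation of 176 bp, and in 90% of cases it was at most 808.6 bp. At the 353 strong regions with 1 region in each list the median was 61 bp and the 90% value 302.1 bp. At the 1310 such other reproducible regions the values lay in between, 123 bp and 558.4 bp. Replicate regions covered a median of 76.7% of a site in replicate 1 and 86.8% in replicate 2. For strong regions the cover was 92.1% and 96.5%, and for other reproducible regions 86.0% and 92.5%. Overlap limits the distance between centres in all these sets, and the differences were given no test.

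On the autosome arms the sites were spread at 12.3 per Mb (95% exact Poisson interval 11.6 to 13.0, counting error only). Arm 2R held 287, or 13.6 per Mb (12.05 to 15.2), 3R held 349, or 12.5 (11.2 to 13.9), 2L held 272, or 11.8 (10.5 to 13.3), and 3L held 283, or 11.5 (10.2 to 13.0). The intervals of all 4 arms overlapped. As a share of the arm's regions found in both replicates the order differed, with 35% on 2R, the least, 38.1% on 3R, 39.7% on 3L and 40.5% on 2L, and these intervals overlapped too. The share of weak regions found in both lists was between 22.5% and 24.3% on each arm. When a region needed only 1 of the replicate lists, the density was 17.5 to 23.0 per Mb on 2L, 21.3 to 26.2 on 2R, 17.6 to 23.3 on 3L and 19.6 to 24.0 on 3R, the lower value with replicate 2 left out in each case.

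Median level and width were alike on the 4 arms. The median combined score was between 0.408 and 0.413, and the median width between 2286 bp on 3R and 2447 bp on 2R. The median score lay between 0.47 and 0.49 in replicate 1 and between 0.46 and 0.47 in replicate 2.

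Along the arms, each was cut into 5 equal parts from the chromosome end to the centromere. The part next to the centromere held 14.1 sites per Mb over the 4 arms (95% exact Poisson interval 12.5 to 15.9) and the middle part 10.8 (9.35 to 12.3). The middle part held 11.1 sites per Mb on 2L, 11.3 on 2R, 10.2 on 3L and 10.6 on 3R. On each arm this was less than in the part next to the centromere, with intervals that overlapped. Which part was the densest differed between arms. On 2R and 3R the part next to the centromere was the densest, with 15.1 and 15.8 sites per Mb, but on 2L it held 14.1 against 15.6 in the second part, and on 3L 11.2 against 13.4 in the part at the chromosome end. The other regions found in both replicates, neither weak sites nor strong, had 21.9 per Mb next to the centromere and 13.8 in the middle over the 4 arms. Strong regions had 3.78 per Mb next to the centromere and 4.66 in the middle. The lowest density of any part was 6.52 sites per Mb (4.40 to 9.31) in the fourth part of 2L, where strong regions (1.52 per Mb) and other reproducible regions (6.95 per Mb) were also sparsest among the parts of that arm. The highest was 15.8 (12.6 to 19.4) next to the centromere of 3R. Regions lie in groups and are not independent draws, so these differences were not tested.

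**Figure D4:**
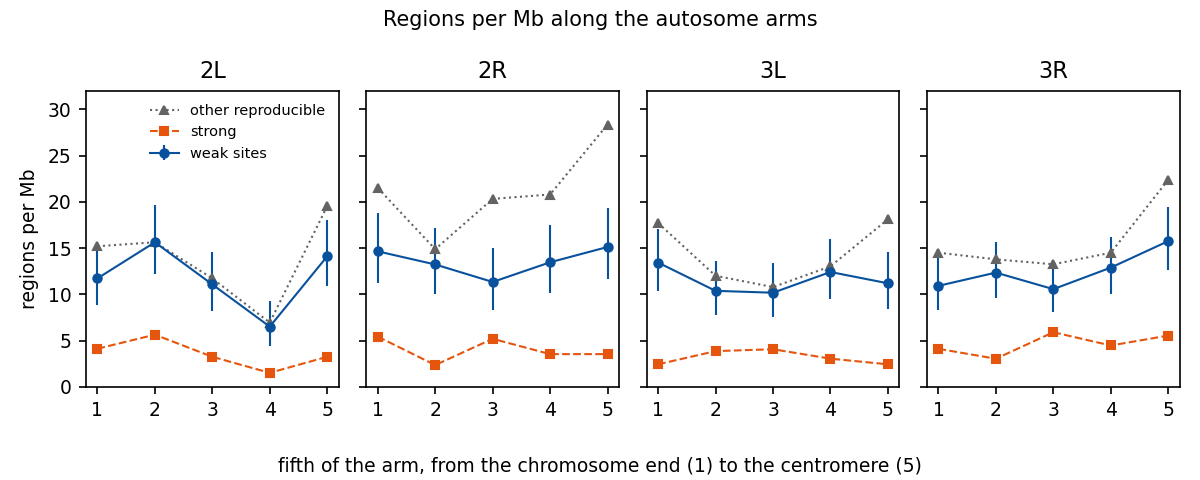
Regions per Mb in 5 equal parts of each autosome arm, from the chromosome end (1) to the centromere (5); blue circles are the weak sites with 95% exact Poisson intervals, grey triangles the other regions found in both replicates and orange squares the strong regions (score of at least 1). The dip of the weak sites in the fourth part of 2L, to 6.52 per Mb, is matched by both other sets.

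The sites lay near strong regions about as often as other regions of the list did. The nearest strong region lay within 10 kb of 124 sites, or 10.4% (95% exact interval 8.73 to 12.3%), and within 2 kb of 35, or 2.94%. The median distance was 73.0 kb. For the 1556 other reproducible regions, the share within 10 kb was 11.1% (9.60 to 12.8%) and the median 78.4 kb. For the 3854 weak regions that were not in both lists it was 10.2% (9.23 to 11.2%) and 86.8 kb. The intervals of the 3 shares overlapped. Per arm the share of sites within 10 kb of a strong region was 8.83% on 3L, 9.06% on 2R, 10.7% on 2L and 12.6% on 3R.

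Being near a strong region went with little change in the sites themselves. The 124 sites within 10 kb had a median combined score of 0.42 and a median width of 2406 bp, and the 742 sites more than 50 kb away 0.41 and 2359 bp. The replicate medians were 0.47 and 0.47 for the near sites and 0.48 and 0.47 for the far ones. The median SD between replicates was 0.071 near and 0.056 far. A replicate region was split or shared at 9.68% of the near sites and at 8.09% of the far ones.

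The sites had neighbours in the combined list about as close as those of other regions. The median distance to any combined-list region was 1.81 kb, and 91.6% of the sites had one within 10 kb, as had 92.8% of the other reproducible regions and 89.0% of the weak regions not in both lists. The kinds of nearest neighbour were close to their shares of the list, except that other reproducible regions were somewhat more frequent than their share. The nearest was a region not found in both lists at 654 sites, or 54.9%, a class that made up 56.6% of the arms' list. It was another weak site at 14.8% (16.5% of the list), a strong region at 5.21% (5.20%), and another reproducible region at 25.1% (95% exact interval 22.7 to 27.7%), a class that made up 21.6% of the list. Another weak site lay within 10 kb of 402 sites, or 33.8% (31.1 to 36.5%), at a median distance of 17.9 kb. That share was 54.7% with replicate 1 left out and 46.2% with replicate 2 left out, where more regions entered, and 16.0% with a score limit of 0.4, where fewer did.

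**Figure D5:**
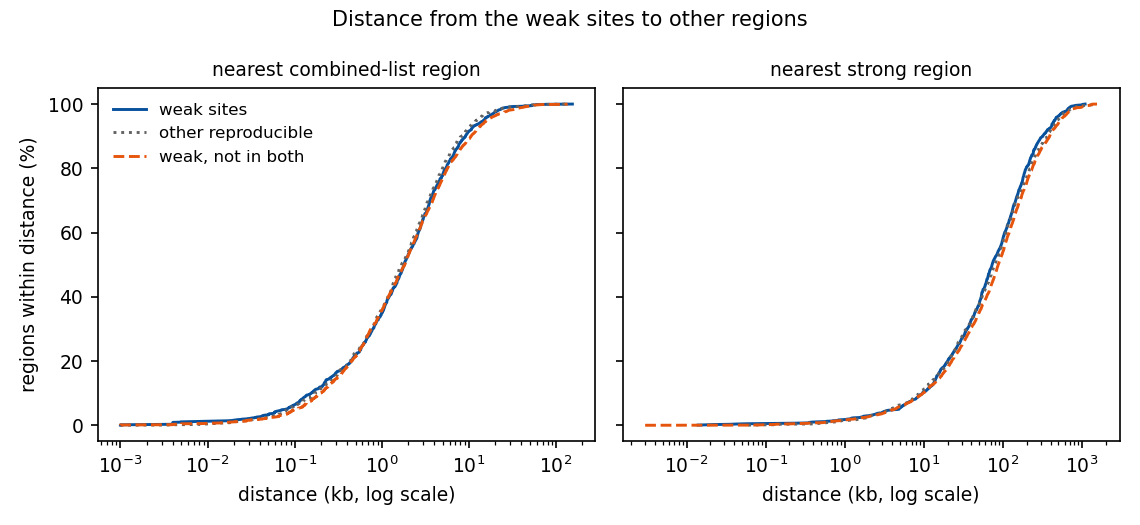
Share of regions (y axis, %) with the nearest combined-list region (left) or the nearest strong region (right) within the distance on the x axis (kb, log scale, edge to edge), for the 1191 weak sites, the 1556 other reproducible regions and the 3854 weak regions not found in both lists. The 3 curves run close together, with median distances to a strong region of 73.0, 78.4 and 86.8 kb.

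A few sites stood apart and others nearly touched. The most isolated was 2L:17962296-17964467, 154 kb from any other region, with a combined score of 0.46 and replicate scores of 0.48 and 0.46. It was followed by 2R:13152047-13154038, 78.6 kb from its neighbour, at 0.28 in replicate 1 and 0.38 in replicate 2, and by 3L:4624679-4627804, 58.7 kb away, at 0.39 and 0.70. All 3 had a region of their own in each library. At the other end, 2R:4558213-4560079 and 2R:4560084-4562175 were 4 bp apart and shared 1 replicate 1 region at 0.45, while replicate 2 had separate regions there at 0.33 and 0.50. The closest sites of 3R, 3R:19974174-19976367 and 3R:19976372-19979259, were also 4 bp apart and shared a replicate 1 region at 0.41. These pairs on 2R and 3R count as separate sites although 1 library saw a single region. The closest pairs of the other arms shared no replicate region. On 3L, 3L:22138689-22143315 and 3L:22143375-22146880 were 0.059 kb apart. On 2L, 2L:16726658-16728667 and 2L:16728775-16732402 were 0.107 kb apart. In all, 44 sites lay within 500 bp of another.

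The sites were scattered over the arms. Of the 969 windows of 100 kb, 619 (63.9%) held at least 1 site, 286 held a strong region, and 53 held 4 or more sites. In windows with no strong region, which were 683 or 70.5% of all windows, lay 771 sites, or 64.7%. The fullest window of each arm held 5 or 6 sites. The one on 2L, from 7.0 to 7.1 Mb, had 6 sites and no strong region, with scores from 0.28 to 0.46 in the combined list, 0.39 to 0.69 in replicate 1 and 0.34 to 0.70 in replicate 2. The one on 3R, from 2.9 to 3.0 Mb, had 6 sites beside 1 strong region, with scores from 0.23 to 0.45, from 0.36 to 0.64 and from 0.34 to 0.50. The fullest of 2R, from 1.5 to 1.6 Mb, and of 3L, from 0.2 to 0.3 Mb, had 5 sites and 1 strong region each, and were the first of 2 and of 3 windows with that number. The windows were picked for their number of sites, so the number is a description.

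The 3 neighbouring windows with the most strong regions, on 3R from 12.5 to 12.8 Mb, held 14 of them and contained 7 of the weak sites, and 5 of them lay within 10 kb of a strong one. The nearest was 3R:12770993-12773180, 121 bp away, with 0.48 in replicate 1 and 0.68 in replicate 2. The site 3R:12748406-12750401, 826 bp away, scored 0.58 and 0.46. The order of the replicates was opposite at these sites. All 7 had combined scores from 0.28 to 0.49.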

How the data were processed

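The data were lists of enriched regions from 2 ChIP libraries, 1 list per replicate and 1 for both combined; the 2 input libraries had no list here. The submitters' processing notes name Bowtie 0.12.7 as the aligner. Per the file headers, positions follow FlyBase release 5. The region caller, its threshold, how inputs entered and how replicates were pooled are not stated in the sources used. Read depth is unknown, and intervals cover counting error only. The authors gave each region 1 score, taken as log2: among the 12 most frequent scores of each list, 16, 44 and 24 of 66 differences (combined, replicate 1, replicate 2) equal log2 of a ratio with a denominator up to 40, within 1e-07, and 0 equal a natural or base 10 logarithm of one.

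Overlaps, gaps between region edges, exact Clopper-Pearson and Poisson intervals were computed in Python 3.11.15 (scipy 1.17.1, numpy 2.4.6, pandas 2.3.3); on simulated lists, overlaps and gaps were compared with those of bedtools 2.31.1, and figures were drawn with matplotlib 3.10.9. No test was run, because the score, width and overlap chose the members and neighbouring regions are not independent draws. The members, thresholds and measures were chosen with earlier results of these data known. Named sites are, per arm, those with the highest mean replicate score, the lowest combined score and the greatest width, the 5 largest and 5 smallest replicate differences, the 3 most isolated, the closest pair of each arm, those at the limits and the fullest windows. The narrowest site and the 3R stretch were added after their values were seen. The promoter and motif results planned need a release 5 genome and were not analysed here.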

Additional observations from a re-analysis of the deposited data

How the results depend on the processing

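Of 54 alternatives computed, 20 stayed within the interval, the replicate SD or, for the number of sites, 1.5 times the reported value, and 34 moved. Most moved by construction, because the alternative took in more or fewer regions. With 1 replicate list required, the number of sites was 1833 to 2326, their median width 2102.5 to 2145 bp, the share within 10 kb of another site 46.2 to 54.7%, and the density 17.5 to 23.0 per Mb on 2L, 21.3 to 26.2 on 2R, 17.6 to 23.3 on 3L and 19.6 to 24.0 on 3R. With a score limit of 0.4 there were 524 sites, with a median width of 2105.5 bp, a median replicate 2 score of 0.40, 16.0% within 10 kb of another site, 5.21, 5.63, 5.50 and 5.38 per Mb on 2L, 2R, 3L and 3R, and 14.4% of weak regions found in both lists. With 50% of the region covered by each replicate, the median width was 2256 bp, the centre distance 156.5 bp, the share near another site 27.7%, the densities 9.86, 11.7, 9.53 and 10.9 per Mb, and the share found in both 20.1%. Within 50 kb, 37.7% of sites had a strong region and 79.8% another site, and strong regions with a ratio of at least 3 lay within 10 kb of 2.02%. Sites matched one to one, an alternative chosen after seeing the data, kept the 5 values computed within their interval or SD, or within 1.5 times for the count. The replicate 1 score without replicate 1, and likewise replicate 2, gives no value. No paired analysis was possible because no comparison of groups could be made, input lists not being analysed here. The promoter and motif alternatives were not run. With read depth unknown, absence from a list does not show absence of binding.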

Other observations

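One score was repeated far more often than any other. In the combined list 113 regions had the same score, 0.38 (a ratio of 1.30), while the next most frequent score was held by 10. On the 4 arms 90 regions had it, all of them weak, with a median width of 1349 bp. The weak sites included 17 of these, with a median width of 2137 bp, and they ran from 0.36 to 0.62 in replicate 1 and from 0.30 to 0.59 in replicate 2, so the repeated value was not repeated in the replicates. Of the 90, 18.9% were found in both replicates (95% exact interval 11.4 to 28.5%), and of the 1159 weak regions scored 0.35 to 0.40 without it 20.4% (18.1 to 22.8%). The replicate 2 list had a frequent score of its own, 0.41, at 54 regions and 14 weak sites, and replicate 1 one of 0.55 at 24 regions and 7 weak sites.

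The 464 sites under 0.5 in all lists were narrower than the rest, with a median of 2106.5 bp against 2649 bp for the 727 that reached 0.5 in at least 1 replicate. They were within 10 kb of a strong region at 9.05%, and the 727 at 11.3%. Replicate regions were split or shared at 4.09% of the former and 11.0% of the latter. The median combined score was 0.35 for the former and 0.44 for the latter. Across the 1191 sites, width rose with combined score (Spearman rho 0.43). A split site was grouped by its highest replicate score, and how far this and the score set the differences was not tested.

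The pile-up near 2000 bp was present in each replicate list. Replicate 1 had 553 regions from 2000 to 2099 bp against 294 from 1800 to 1899 bp, and replicate 2 had 623 against 291. From 1300 to 1399 bp there were 501 and 352, so the counts dipped before the pile-up. The median score dipped as well. In replicate 1 it was 0.51 from 1300 to 1399 bp, 0.47 from 1800 to 1899 bp and 0.58 from 2000 to 2099 bp. In replicate 2 it was 0.44, 0.41 and 0.53. The cause was not tested.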
